A study of Mytilus galloprovincialis with 16 samples.

Results

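In digestive glands of Mytilus galloprovincialis, a Mediterranean mussel, 34 of the 1920 cDNA clones on an array gave a stronger signal in males than in females at stage 1 and again at stage 3 of gonad development. A clone was taken when the authors' deposited log2 ratio, turned to male over female and averaged over its 2 spots and the 4 arrays of a stage, was at least 0.7 at stage 1 and at least 0.7 at stage 3. A further 46 clones passed this at stage 1 but not at stage 3, and 57 passed it at stage 3 but not at stage 1. Stages 2 and 4 took no part in the choice. The study asked how male and female glands differ while the gonads mature. On each array the RNA of 1 male and 1 female of the same stage, both single wild mussels from the Bizerta Lagoon, was hybridised competitively in Cy3 and Cy5. Each stage had 4 arrays, 16 in all, with males in Cy5 on 2 of them and in Cy3 on the other 2. The animals carried no treatment, their age is not given, and sex and stage came from sections of the mantle. Stage 1 was sampled in November, stage 2 in January, stage 3 in February and stage 4 in March, so stage and month cannot be told apart.

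In mussels the digestive gland takes up and breaks down food, stores reserves and handles metals and other foreign compounds. The gonad of these animals develops inside the mantle, a different organ, and draws on reserves while gametes form. The array names its spots by clone only. Neither the files nor the reference table used here pairs a clone with a gene, so the 34 clones are given by their identifiers, with no role and no sequence, and no list of genes for a pathway or for a cell type of the gland could be read.

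The share of clone spots above background in either channel lay between 28.8% and 56.7% per array, and the log2 ratios of a clone's 2 spots correlated at 0.436 to 0.930. For the 34 clones the median difference between the 2 spots was 0.05 to 0.20 on the log2 scale. For stage 4, the difference between replicates 2 and 4 was smaller than the sampling noise given by duplicate spots, and their mean stands as 1 sample. Stage 4 therefore has n = 3 and the other stages n = 4. The 2 arrays averaged here also had nearly the profile of stage 3 replicates 1 to 3, at r = 0.739 to 0.886 over all clones. Among those 3 arrays of stage 3, r was 0.651 to 0.912. Stage 4 was thus not wholly separate from a stage that the choice used, and its values are given with and without the averaged replicate. Over all clones the mean ratios of stages 1 and 2 ran in opposite directions (r = -0.589). The dyes in the labels and the authors' ratios gave the same direction on all 16 arrays, which was kept. Both rest on the submitters' own assignment of sex to dye, so their agreement cannot show whether that assignment held at stage 2. This was not tested, and results with the sexes exchanged on the stage 2 arrays are given below.

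The 34 clones were bright in both sexes at stages 1 and 2 and dimmer at stages 3 and 4, with the lowest levels in females. A level is the log2 intensity of 1 sex after normalisation, for which the median over all clones stayed between 6.65 and 6.69 in either sex at every stage. In males the median level of the 34 clones was 10.71 ± 0.36, 9.30 ± 0.69, 8.33 ± 0.22 and 8.41 ± 0.11 in the order of the stages (mean ± SD over replicates, n = 4, 4, 4 and 3). In females it was 8.78 ± 0.07, 10.38 ± 0.13, 6.53 ± 0.52 and 7.28 ± 0.92 at the same stages. Males were thus highest at stage 1, whereas females were highest at stage 2 and at stage 3 stood at the level of the median clone. The choice required males to exceed females at stages 1 and 3, so the levels of these stages were partly set by it. Male levels of stages 3 and 4 differed by 0.08, less than the spread of either stage, and the female replicates of these stages overlapped. Levels of different stages come from different animals on different arrays, and in pieces of whole gland fewer cells of a type and less RNA per cell cannot be told apart.

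**Figure D1:**
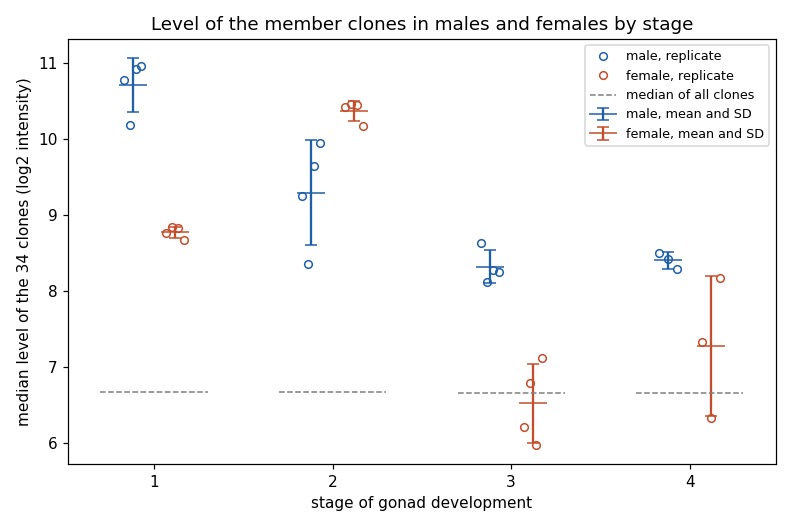
Median level of the 34 clones (log2 intensity, vertical axis) in males (blue) and females (orange) at each stage of gonad development. Circles are replicates, bars are the mean and SD over 4 replicates (3 at stage 4), and the dashed line is the median of all 1920 clones, near 6.7. Males stood above females at stages 1, 3 and 4, and below them at stage 2.

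Detection followed the same course. A clone was counted as above background on an array when at least 1 of its spots exceeded the local background by 2 background SDs. In females all 34 clones were above background on every array of stage 2, against 39.3% of all clones. At stage 1 this held for 29 of the 34 (17.1% of all clones), at stage 3 for 2 (16.1%) and at stage 4 for 7 (19.8%). Females were above background on no array of stage 3 for 21 of the 34, against 38.1% of all clones, and on no array of stage 4 for 6, against 44.7%. In males 32, 31, 27 and 29 of the 34 clones were above background on every array of stages 1 to 4, against 19.8%, 18.1%, 22.4% and 29% of all clones, and none was below it throughout a stage. Where females were below background on every array of a stage, the fold of males over females is a lower bound, which set the male mean against the higher of the clone's own female signal and the lowest signal counted as above background on each array. At stage 3 such bounds ran from at least 1.28-fold to at least 6.58-fold for the 21 clones, and at stage 4 from at least 1.49-fold to at least 2.19-fold for the 6.

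At stages 1 and 3 the ratios are those that chose the clones and carry no test. In the authors' values the stage 1 ratio ranged from 1.02 to 2.41 with a median of 1.67, and the stage 3 ratio from 0.72 to 3.07 with a median of 1.56. Just inside the threshold lay Myt01-010H04, with 1.45 at stage 1 and 0.72 at stage 3, and Myt01-007A02, with 1.43 and 0.78. Just outside it lay Myt01-017E11, with 1.32 and 0.68, and Myt01-014H06, with 1.19 and 0.64. From here on ratios are those recomputed from the scanner intensities, where the median ratio of the 34 clones on the 4 arrays of stage 1 was 1.86, 1.53, 1.31 and 1.79, and on those of stage 3 was 2.34, 1.23, 1.93 and 1.08. All 34 clones were above 0 on 3 of the 4 arrays of stage 1. On stage 1 replicate 2 the ratio was below 0 for 2 of them, Myt01-015B01 with -1.63 and Myt01-011F09 with -0.49. Both lie in block 16 of the array, as does Myt01-015H05 with 0.21, and no other of the 34 clones does. Male levels of these clones on that array were 8.02, 6.82 and 5.98 in this order. Each other array of stage 1 gave at least 11.04, 9.45 and 11.51. Female levels on that array were 9.64, 7.32 and 5.77, where each other array gave at least 8.58, 7.56 and 8.73. In Myt01-015H05 both sexes were thus low there, whereas in Myt01-015B01 only the male level was. Whether a local fault of that array lay behind these values was not tested.

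The clone with the highest mean of both ratios was Myt01-013H05. Its male level was 12.07, 11.78, 11.96 and 12.45 on the arrays of stage 1 and 10.59, 9.02, 9.09 and 9.24 on those of stage 3. In females it was 10.20, 10.07, 10.28 and 10.35 at stage 1 and 6.16, 7.09, 5.67 and 7.50 at stage 3. The wider gap at stage 3 thus came with lower levels in both sexes, the female one being above background on no array, for a bound of at least 6.58-fold. Myt01-012A11 was the brightest of the 34 clones in males at stage 1, with levels of 12.55, 12.16, 12.49 and 12.38, beside 10.54, 10.44, 11.23 and 10.86 in females. At stage 3 it stood at 10.56, 9.61, 10.19 and 10.11 in males and at 6.55, 7.61, 6.08 and 8.23 in females. The sexes did not overlap at either stage.

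At the other end, Myt01-017E06 and Myt01-015G03 had the lowest mean of both ratios. For Myt01-017E06 the log2 ratio was 0.77, 1.33, 0.68 and 1.22 at stage 1 and 1.06, 0.80, 1.23 and -0.12 at stage 3. For Myt01-015G03 it was 1.47, 0.39, 0.69 and 1.34, then 1.93, 0.62, 0.79 and 0.58. In the latter, replicate 1 was the highest at stage 3, where the mean was 0.98 ± 0.64 (SD, n = 4). The dimmest of the 34 clones in males at stage 1 were Myt01-013D04, at 8.53 ± 0.80, and Myt01-007A02, at 8.62 ± 0.16 (SD, n = 4), which were still well over the median clone.

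**Figure D2:**
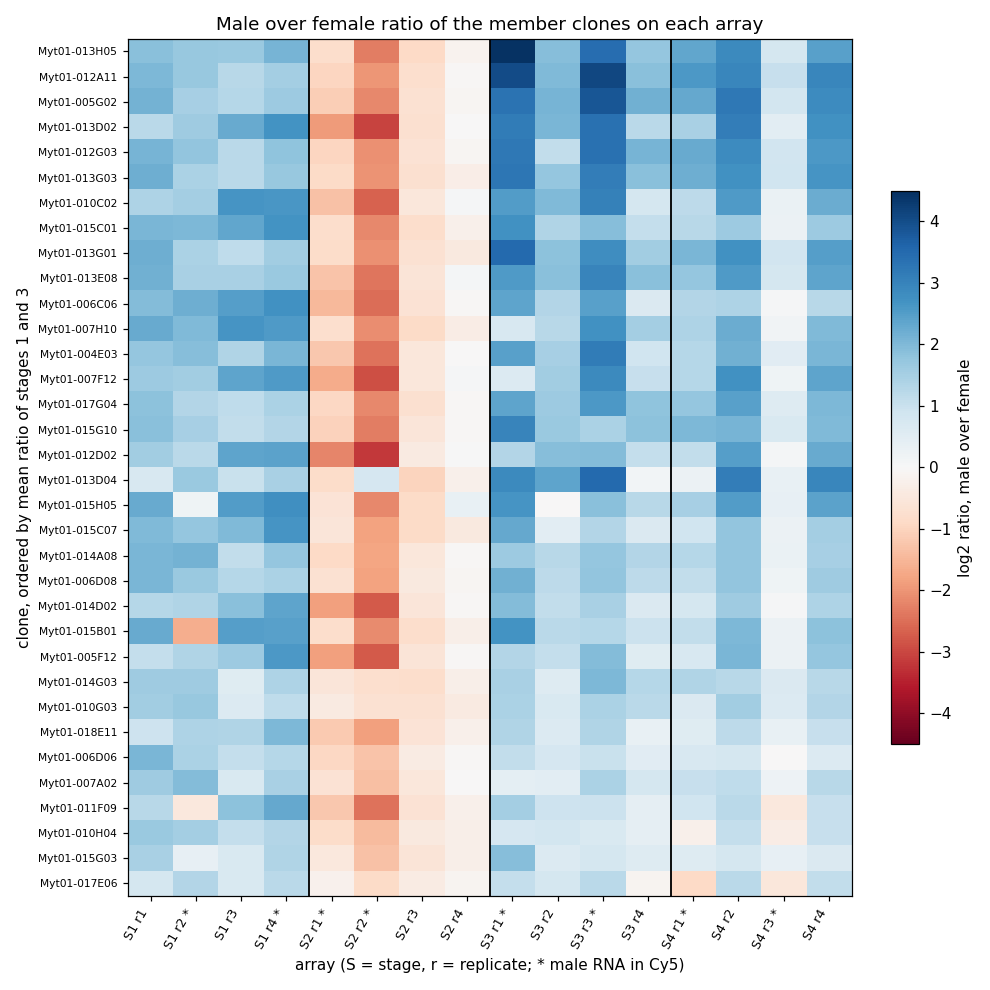
Log2 ratio of male over female (colour, blue for higher in males and red for lower) of the 34 clones in rows, ordered by their mean over stages 1 and 3, on the 16 arrays in columns; an asterisk marks arrays with male RNA in Cy5. Stage 2 is the red band, deepest in replicate 2 with a median of -2.09 and near 0 in replicate 4.

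At stage 2, which the choice did not use, the question was whether the clones still differed between the sexes. All 34 mean ratios were below 0, from -1.43 to -0.32 with a median of -0.98, a 1.97-fold lower signal in males, while the median over all clones was 0.04. No clone of the 34 passed an adjusted p of 0.05 in limma, where 0.781% of all clones were called lower in males, and the smallest adjusted p among the 34 was 0.0900. Without adjustment 30 of the 34 had a p under 0.05 in the lower direction, against 8.49% of all clones, and none had a B statistic (the log odds of a difference) over 0, which 0.469% of all clones had in this direction. The ratio was below 0 on all 4 arrays for 28 of the 34, against 12% of all clones.

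The size of the stage 2 difference varied between arrays, the median ratio of the 34 clones being -0.91, -2.09, -0.64 and -0.07 on replicates 1 to 4. Replicates 1 and 2 had males in Cy5 and replicates 3 and 4 in Cy3. With males in Cy5 the median was -1.48 and with males in Cy3 it was -0.36, and the mean of either pair was below 0 in all 34 clones. Female levels hardly moved between these pairs, at 10.37 and 10.38, whereas male levels were 8.88 and 9.86. A dye effect common to all stages, fitted as a term, gave no call among the 34, against 1.04% of all clones called lower in males. It could not move the median of -0.98, since stage 2 had 2 arrays of each dye orientation. Without stage 2 replicate 4 there were 2 calls (1.51% of all clones), and without the averaged replicate of stage 4 there was 1 (0.521%). The call also depended on the processing, since median centring without loess called 26 of the 34 lower in males, against 4.64% of all clones, and spots kept apart called 29, against 4.74%.

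The lowest ratios at stage 2 were those of Myt01-012D02 and Myt01-013D02. Myt01-012D02 had log2 ratios of -2.18, -3.18, -0.39 and 0.02, a mean of -1.43 (SE 0.46, adjusted p = 0.134). Myt01-013D02 had -1.90, -3.04, -0.70 and -0.01, a mean of -1.41 (SE 0.49, adjusted p = 0.156). Both were thus far below 0 on the arrays with males in Cy5 and near it on 1 of the others. The highest ratios belonged to Myt01-013D04, with -0.83, 0.76, -0.99 and -0.24, and to Myt01-017E06, with -0.18, -0.86, -0.37 and -0.13. On replicate 2 Myt01-013D04 was the only one of the 34 clones above 0.

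At stage 4 males were again the higher sex, with a ratio above 0 for 33 of the 34 clones, a median of 1.14 and a 2.20-fold difference. The median over all clones was -0.02. No clone of the 34 was called at an adjusted p of 0.05 in limma, nor was any of the 1920 (0%), and the smallest adjusted p was 0.170. Without adjustment 24 of the 34 had a p under 0.05 and were higher in males, against 2.19% of all clones. By a B statistic over 0 there were 4 calls, all among the 34 clones, against 0.208% of all clones. The ratio was above 0 in 3 of 3 replicates for 30 of the 34, against 12.7% of all clones.

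Here too arrays differed, with median ratios of 1.27, 2.07, 0.32 and 1.91 on replicates 1 to 4. The averaged replicate had the highest ratio, and without it the median of the 34 clones was 0.74. With males in Cy5 the median was likewise 0.74, since replicates 1 and 3 are the arrays of that orientation, and with males in Cy3 it was 1.99. Most of the spread lay in the females, whose median level was 7.33 in replicate 1, 6.34 in the averaged replicate and 8.17 in replicate 3, beside male levels of 8.51, 8.42 and 8.29. Other settings gave more calls, among them 8 after plain background subtraction, 12 with all 16 arrays as replicates and 17 with spots kept apart, where 0.417%, 0.625% and 0.885% of all clones were called higher in males.

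The highest stage 4 ratios were those of Myt01-012A11 and Myt01-005G02. Myt01-012A11 had log2 ratios of 2.58, 2.95, 1.05 and 2.95 on the 4 arrays, a fitted mean of 2.19 (SE 0.47, adjusted p = 0.170). Myt01-005G02 had 2.29, 3.21, 0.83 and 2.81, a fitted mean of 2.04 (SE 0.43, adjusted p = 0.170). Both were above 0 on every array. Myt01-017E06 and Myt01-010H04 lay lowest, the first with -0.90, 1.21, -0.50 and 1.11 and the second with -0.23, 1.08, -0.33 and 1.03. In these clones the sign followed the array, positive on replicates 2 and 4, which count as 1 sample, and negative on the others.

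The change from stage 2 to stage 4 was then followed in each sex. In females 33 of the 34 clones were called lower at stage 4 than at stage 2, against 4.27% of all clones, at adjusted p values from 1.43e-05 to 0.0310. The median change was a fall by 2.96 on the log2 scale, or 7.77-fold, with a median SE of 0.51, while the median over all clones was 0.05. All clones include dim ones, which have little room to fall. A fit to the 1216 clones above background in females on at least 2 arrays of these stages called 8.14% lower, 33 of the 34 among them. With the sexes exchanged on the stage 2 arrays, the median change in females was -1.97 and 22 of the 34 were called lower, against 2.19% of all clones. In 33 of the 34 every female of stage 2 was above every female replicate of stage 4, against 11% of all clones. For 6 clones females of stage 4 were above background on no array, and the fold of stage 2 over stage 4 is a bound there, from at least 2.33-fold for Myt01-014G03 to at least 9.94-fold for Myt01-005F12. With these 6 at their bound the median over the 34 clones was -2.95. Of the 937 clones above background in females on at least 1 array of both stages, 14 fell by more than 3, and all 14 were among the 28 of the 34 clones measured in this way. With the sexes exchanged on the stage 2 arrays 834 clones were measured in this way and 4 of them fell by more than 3, all among the 34.

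In males no clone of the 34 was called between stages 2 and 4 in limma, against 0.312% of all clones called lower. The median change was -0.73, with 29 clones lower and 5 higher by the point estimate, and 15 of the 34 lower at an unadjusted p under 0.05, against 6.35% of all clones. Male levels of stage 2 were all above those of stage 4 in 5 of the 34 clones, against 5.42% of all clones. With males in Cy5 the median male change was -0.04 and with males in Cy3 it was -1.40, while the female change was -2.57 and -3.94. Leaving out stage 2 replicate 2 gave 2 calls in males, and leaving out stage 3 replicate 4 gave 1 (0.521% and 0.573% of all clones). With the sexes exchanged on the stage 2 arrays 17 of the 34 were called lower in males, with a median of -1.63, against 2.6% of all clones.

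**Figure D3:**
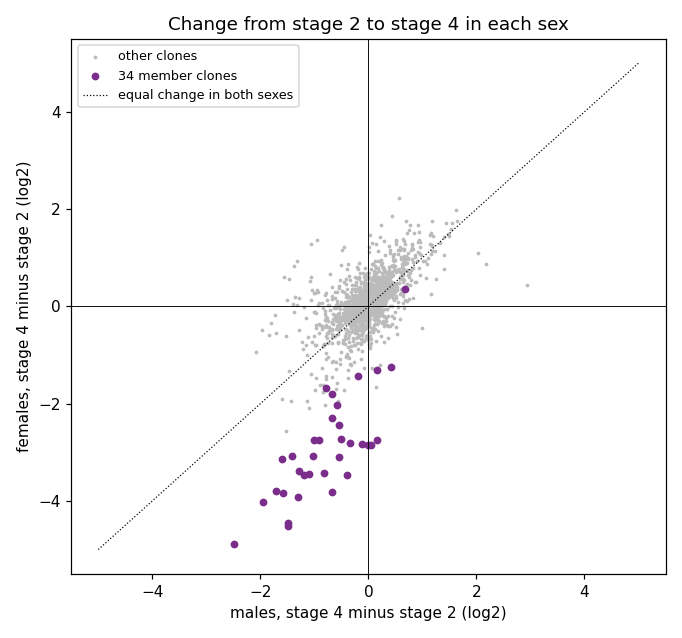
Log2 change from stage 2 to stage 4 in males (horizontal axis) and females (vertical axis) for all 1920 clones in grey and the 34 clones in purple, with a dotted line where both sexes changed alike. All 34 lie below the dotted line, and 33 of them fell by more than 1 in females.

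The fall in females ranged widely among the 28 clones measured at both stages. It was over 4 on the log2 scale in 4 clones, Myt01-010C02, Myt01-013D02, Myt01-013H05 and Myt01-006C06. It lay between 3 and 4 in 10, namely Myt01-012D02, Myt01-015H05, Myt01-012A11, Myt01-015B01, Myt01-005G02, Myt01-004E03, Myt01-007F12, Myt01-015G10, Myt01-015C01 and Myt01-011F09. Another 9 fell by 2 to 3, Myt01-013G01, Myt01-012G03, Myt01-013E08, Myt01-017G04, Myt01-013G03, Myt01-006D08, Myt01-015C07, Myt01-007H10 and Myt01-014A08. The 4 clones Myt01-006D06, Myt01-010H04, Myt01-015G03 and Myt01-010G03 fell by 1 to 2. The other 6 have a bound only, of at least 9.48-fold for Myt01-014D02, 8.32-fold for Myt01-013D04, 4.68-fold for Myt01-018E11 and 3.43-fold for Myt01-007A02, beside the values given above for Myt01-005F12 and Myt01-014G03. The exception was Myt01-017E06, whose change in females was 0.36 (adjusted p = 0.770).

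Myt01-010C02 had the largest fall of these 28 clones and is named after its values were seen. Its female levels were 11.81, 12.72, 12.03 and 12.05 on the arrays of stage 2 and 7.43, 5.76, 8.46 and 6.11 on those of stage 4. Its males went from 10.49, 10.07, 11.51 and 12.11 to 8.59, 8.31, 8.77 and 8.35. Neither sex overlapped between the stages, and the fit gave -4.88 in females (SE 0.60, adjusted p = 1.43e-05) and -2.48 in males (SE 0.60, adjusted p = 0.0674).

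In Myt01-013D02 the females fell from 11.88, 11.91, 11.77 and 11.24 to 7.15, 5.99, 8.28 and 6.27, a change of -4.51 (SE 0.66, adjusted p = 7.21e-05). Its males went from 9.98, 8.87, 11.07 and 11.23 to 8.60, 9.09, 8.77 and 8.99, so that they overlapped, with a change of -1.48 (adjusted p = 0.403). Myt01-013H05 was alike in size. Its females went from 11.55, 12.24, 12.79 and 12.17 to 8.12, 6.16, 8.80 and 6.45, a change of -4.45 (SE 0.62, adjusted p = 4.27e-05).

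In Myt01-005G02 the males of both stages overlapped. They stood at 9.80, 9.22, 10.47 and 11.10 at stage 2 and at 10.19, 9.53, 9.60 and 9.37 at stage 4, a change of -0.40 (SE 0.54, adjusted p = 0.944). Females of this clone went from 10.90, 11.38, 11.16 and 11.20 to 7.90, 6.31, 8.77 and 6.55, a change of -3.46 (SE 0.54, adjusted p = 1.12e-04). At stage 1 its males had been at 12.18 ± 0.28 and its females at 10.55 ± 0.23 (SD, n = 4).

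Myt01-017E06 showed no such course. Its female levels were 8.50, 8.76, 9.21 and 8.85 at stage 2 and 10.18, 8.11, 9.32 and 8.06 at stage 4, and its male levels 8.33, 7.90, 8.83 and 8.72, then 9.27, 9.32, 8.82 and 9.17. It was also above background in females on every array of all stages. At stage 3 its females stood at 8.48 ± 0.83 (SD, n = 4), where the median of the 34 clones was 6.53.

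**Figure D4:**
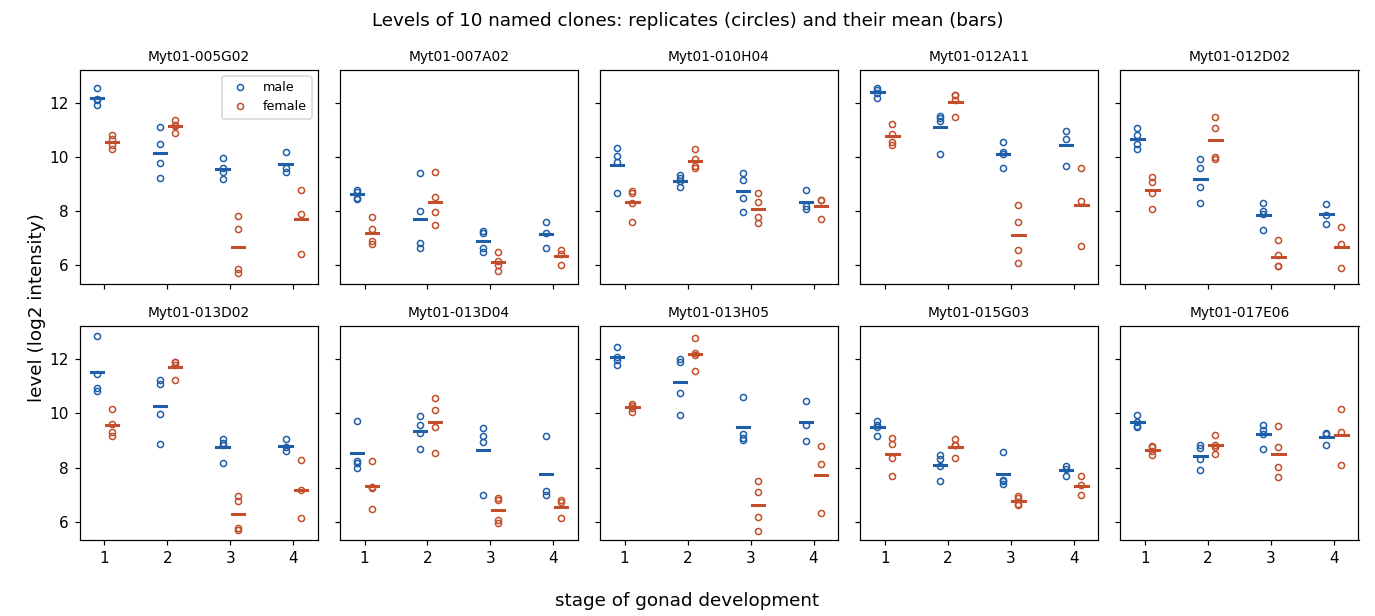
Levels (log2 intensity) of the 10 clones named by rule, with males in blue and females in orange at each of the 4 stages; circles are replicates and bars their mean. In 9 of the clones the female circles of stage 2 lie above those of stage 4, and Myt01-017E06 is the exception.

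Whether females fell more than males was tested as the change of the ratio from stage 2 to stage 4. This change was positive in all 34 clones, with a median of 2.15, and 12 of the 34 passed an adjusted p of 0.05 in limma, against 0.833% of all clones called in that direction. The 12 were Myt01-005G02, Myt01-010G03, Myt01-012A11, Myt01-012G03, Myt01-013E08, Myt01-013G01, Myt01-013G03, Myt01-013H05, Myt01-014A08, Myt01-014G03, Myt01-015G10 and Myt01-017G04, with changes of 1.45 to 3.14. Their adjusted p values lay between 0.0310 and 0.0498. Large changes without a call also occurred, such as 3.03 for Myt01-013D02 (SE 0.74, adjusted p = 0.0799).

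These 12 calls lay close to the threshold. None was left without stage 1 replicate 1, without stage 2 replicate 1, 2 or 3, without stage 4 replicate 1 or without the averaged replicate of stage 4. In each of these fits 0% of all clones were called with a rise of the ratio. Leaving out replicate 2 or replicate 4 of stage 1 gave 6 and 5 calls, and leaving out replicate 4 of stage 2 gave 25 (0.417%, 0.365% and 2.08% of all clones). None was called when arrays that shared a stage and an orientation of the dyes formed a random block, nor with stages 2 and 4 fitted alone. With the ratios of stage 2 turned, the median change was 0.21 with no call. In these settings too, 0% of all clones were called with a rise. For the fall in females there were 30 to 33 calls when any 1 replicate was left out, against 3.23% to 4.74% of all clones. With the sexes exchanged on the stage 2 arrays the counts came close, at 22 calls in females and 17 in males.

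Clones that passed the rule at 1 of the stages only were set beside the 34. In females the change from stage 2 to stage 4 had a median of -2.96 in the 34 clones, -0.89 in the 46 clones male-high at stage 1 alone and 0.71 in the 57 male-high at stage 3 alone. Called lower were 33 of the 34 (97.1%), 22 of the 46 (47.8%) and 2 of the 57 (3.51%). The stage 2 ratio had medians of -0.98, -0.50 and 0.23, and the stage 4 ratio of 1.14, 0.14 and 0.42. The median female level at stage 2 was 10.37 in the 34 clones, above the 8.35 and 8.50 of the other groups. No test was run between these groups, which were chosen on the same arrays.

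Among the 34 clones a division was seen in stage 1 replicate 4, where 13 had a ratio of at least 2.31 and 21 of at most 2.09. It was noticed in the values and carries no test. The 13 were Myt01-005F12, Myt01-006C06, Myt01-007F12, Myt01-007H10, Myt01-010C02, Myt01-011F09, Myt01-012D02, Myt01-013D02, Myt01-014D02, Myt01-015B01, Myt01-015C01, Myt01-015C07 and Myt01-015H05. In stage 1 replicate 3 their ratios were 1.65 to 2.65, with a median of 2.37, and those of the other 21 were 0.56 to 1.68, with a median of 1.15. On stage 2 replicate 2 the medians were -2.51 and -1.85. On stage 3 replicate 1 they lay at 2.30 and 2.38, and on stage 4 replicate 3 at 0.25 and 0.56. None of the 13 was among the 12 clones called for the change of the ratio. Their changes, 1.65 to 3.03, lay within the range of the 12. Their SEs were 0.46 to 0.87, beside 0.27 to 0.65 in the 12. The SE pools the spread of all stages, stage 1 included, so the missing calls do not show a smaller change.

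The spots of the clones lay in 13 of the 16 blocks, with at most 4 of the 34 in 1 block. By identifier they were unevenly spread, over 12 of the 20 plates, with 6 of the 34 on plate 13 and 6 on plate 15. Each plate held 96 clones of the array. For 4 of the 34 the clone in the next well, and for 3 the clone on the next spot, was also one of the 34. The counts expected by chance were not computed, and no test of the placing was run. All were bright, between percentiles 72.3 and 98.6 of mean intensity with a median of 92.1, and 21 were among the brightest 10% of clones.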

How the data were processed

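The authors' deposited scanner files hold, per spot, foreground and local background intensity in both channels on a linear scale, read with GenePix and not normalised. The table of values they deposited gives a log2 ratio for every spot, female over male by the dyes in the labels. Its sign was that of the scanner ratios on all 16 arrays (r = 0.930 to 1.00), its column medians were -0.0261 to 0.0207 and 7 columns were rounded to 2 decimals. The submitters' processing notes name limma without a version. The study's methods state an offset background subtraction, a loess normalisation and a B statistic over 0 as the criterion.

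The 34 clones were chosen on the value table. All other values were computed from the intensities with limma 3.58.1 under R 4.3.3. The normexp method with an offset of 50 removed background, loess normalised each array with blank and alignment spots at weight 0, and a clone's value was the mean of its spots. Clones not above background were kept. One linear model with a coefficient per stage was fitted to the ratios of 1920 clones with lmFit and eBayes (15 replicates, 11 residual degrees of freedom). Levels of each sex were fitted with lmscFit after Aquantile normalisation between arrays, with an intraspot correlation of 0.581. A fold derived from them is open to dye bias. All p-values were two-sided and were adjusted by Benjamini and Hochberg's method over all clones, with 0.05 as the threshold. Both fits were run on simulated data of known differences. Those data held no dye effect and no choice of clones by their ratios, so they cannot test how either bears on the results. The labels call the 4 arrays of a stage biological replicates of single animals.

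Stage 4 replicates 2 and 4 were averaged because their difference had 0.492 times the variance that duplicate spots predict, where the 23 other pairs within a stage had 1.61 to 12.6 times, and because deviations of single spots correlated between them at 0.592, against -0.0719 to 0.0596 in every other of the 120 pairs. The design had counted 16 arrays. The number of arrays limits the precision.

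The members, the comparisons and the lists were chosen with earlier results of these data known. Clones were named in the text when they had the 2 highest or 2 lowest values of the mean ratio of stages 1 and 3, of the ratio at stage 2, of the ratio at stage 4 or of the male signal at stage 1, or lay nearest to the threshold on either side. Of the clone identifiers, 0 matched the reference table of genes, so lists for pathways and cell types gave no result. The alternatives tried changed the background correction, normalisation, filter, weights, replicates and blocks. The files hold no slide or scan date.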

Additional observations from a re-analysis of the deposited data

Results flagged for a closer look

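Among the 99 groups of 4 replicates examined (the ratio, male level and female level of the 10 clones named by rule and of the median of the 34, at stages 1 to 3), 6 held a replicate that stood far from the other 3, where chance alone gives about 1 in 20, or 4.95. At stage 1 replicate 4 the male level of Myt01-013D04 was 9.71, beside 7.998 to 8.231 in the others. At stage 2 replicate 2 the male level of Myt01-012A11 was 10.12, beside 11.32 to 11.53. The median female level of the 34 clones at stage 2 replicate 4 was 10.18, beside 10.42 to 10.46. Stage 3 replicate 1 stood apart in 3 of these groups. There the ratio of Myt01-015G03 was 1.93, beside 0.58 to 0.79, its male level was 8.58, beside 7.39 to 7.52, and the male level of Myt01-013H05 was 10.59, beside 9.02 to 9.24.

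The sex difference of 3 of the named clones changed between stages 2 and 4 by a test of the difference itself. The ratio rose by 2.96 in Myt01-013H05 (limma, adjusted p = 0.0498), by 3.14 in Myt01-012A11 (adjusted p = 0.0342) and by 3.06 in Myt01-005G02 (adjusted p = 0.0310). It was below 0 in the mean of stage 2 and above 0 in that of stage 4 for each of these. These calls lay close to the threshold, and no clone of the 34 was called when arrays that shared a stage and an orientation of the dyes formed a random block, with stages 2 and 4 fitted alone, with the ratios of stage 2 turned, or without any 1 of 6 replicates. In each of these settings 0% of all clones were called with a rise of the ratio.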

How the results depend on the processing

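Percentages in brackets are the share of all clones called in the direction counted. Without background correction there was 1 call at stage 2 (0.573%) and 1 in males (0.417%), and the median change in females was -2.10. Plain subtraction gave 8 calls at stage 4 (0.417%) and 26 for the change of the ratio (1.72%). Median centring gave 26 at stage 2 (4.64%), 9 at stage 4 (0.469%) and 30 for the change (4.01%). Print-tip loess gave 1 at stage 2 (1.3%) and 7 for the change (0.833%). Array weights gave 7 calls at stage 4 (0.677%), and a B statistic over 0 gave 4 (0.208%). Spots kept apart takes the spots of 1 array as partly independent. It gave 29 at stage 2 (4.74%), 17 at stage 4 (0.885%) and 31 for the change (3.59%). Without dim clones there were 19 for the change (1.93% of the 1191 clones kept) and 2 in males (1.45% of the 967 kept). For the change there were 0 calls with stages 2 and 4 fitted alone (0%) and 0 when arrays of 1 stage and orientation formed a random block (0%). All 16 arrays as replicates gave 12 at stage 4 (0.625%), 28 for the change (2.6%) and 2 in males (0.99%). With the replicate number as a block on these 16 arrays there were 9 (0.469%), 24 (1.93%) and 2 (1.04%). That block gave 0 calls at stage 2 (0.781%) and 33 in females (5.36%). Equal numbers did not pair the arrays, since 4 of 24 pairs correlated over 0.1 in their deviations (-0.591 to 0.406).

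With stage 2 turned, the change of the ratio had 0 calls (0% of all clones) and a median of 0.21. The following was added after the data were seen. With the sexes exchanged on the stage 2 arrays there were 17 calls in males (2.6% of all clones), with a median of -1.63. In females there were 22 (2.19%), with a median of -1.97. Without the exchange, the dye as a term gave 0 calls in males (0.365%) and 33 in females (4.11%), the same counts as without the term. By dye orientation, also added for the levels, the median change in males was -0.041 with males in Cy5 and -1.40 with males in Cy3, that in females was -3.94 with males in Cy3, and the stage 4 ratio was 1.99 there. With 1 replicate left out, calls ranged from 0 to 2 at stage 2, stayed at 0 at stage 4, ranged from 0 to 25 for the change, from 0 to 2 in males and from 30 to 33 in females. The medians ranged from -1.23 to -0.59, 0.74 to 1.58, 1.76 to 2.56, -1.03 to -0.52 and -3.41 to -2.50 in the same order. Over these settings, apart from those that leave out a replicate, the share of all clones called in the direction counted was 0% to 4.74% at stage 2, 0% to 0.885% at stage 4, 0% to 4.01% for the change, 0.0521% to 2.6% in males and 2.19% to 8.14% in females. Leaving out 1 replicate gave shares of 0% to 1.51%, 0%, 0% to 2.08%, 0% to 0.625% and 3.23% to 4.74% in the same order.

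Single clones near 0 changed sign. The stage 4 ratio of Myt01-017E06 was 0.043 after plain subtraction, 0.015 with an offset of 16, 0.30 with median centring, 0.23 on all 16 arrays with or without the block, 0.059 with the random block, and -0.70 to 0.33 with 1 replicate left out. Its change of the ratio was -0.15 with array weights, -0.31 to 0.72 with 1 replicate left out and -0.46 with stage 2 turned, and its change in females -0.071 without normalisation between arrays and -0.13 to 0.92 with 1 replicate left out. The stage 4 ratio of Myt01-010H04 was -0.22 with array weights and -0.28 to 0.41 with 1 replicate left out. With stage 2 turned, the change of the ratio was -0.11 for Myt01-015G03, -0.58 for Myt01-010H04 and -0.25 for Myt01-012D02. The cause of these shifts was not tested. The rule gave 33 clones on the scanner ratios, 37 and 32 at thresholds of 0.6 and 0.8, and 32 to 36 without 1 array. No slide or scan date block could be run. Signals of females at stages 3 and 4 lay near background, so folds there are least certain.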
